A study of Oryza sativa Japonica Group with 30 samples.

Results

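The 6 superoxide dismutase genes and 3 catalase genes of rice described here were taken by gene identifier from a table of 55801 genes. All 9 were found with a value above 0, as were 40831 of the 55801. They are a cytosolic pair of copper/zinc enzymes (CuZn-SOD), SodCc1 (LOC_Os03g22810) and SodCc2 (LOC_Os07g46990), the plastid CuZn-SOD sodCp (LOC_Os08g44770), the manganese enzyme Mn-SOD sodA (LOC_Os05g25850), the iron enzymes Fe-SOD LOC_Os06g05110 and LOC_Os06g02500, and the catalases CatA (LOC_Os02g02400), CatB (LOC_Os06g51150) and CatC (LOC_Os03g03910). The series holds 30 RNA-seq samples of whole caryopses, that is, developing grains together with the fruit coat, at 7 days after pollination. Its 10 groups of 3 samples are the wild type (ZH11), lines over-expressing ONAC127 or ONAC129 and mutants of ONAC127 or ONAC129, each grown in paddy fields under natural heat stress or under normal cultivation. Heat-stressed plants had about 6 h a day above 35 °C with a highest temperature of about 40 °C, whereas normal cultivation brought only 3 days above 35 °C, with daytime temperatures averaging about 30 °C. All samples are labelled with 14 h of light and 10 h of dark a day. The labels do not name the promoter that drove over-expression, the type of mutation, the number of independent lines or whether replicates were grown as separate plants.

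The value of each gene is its baseMean as the authors deposited it, a mean of normalised read counts over all libraries with no value for a sample, a genotype or a condition. The same values stand in all 8 tables received, which were named for comparisons of a line with ZH11. No effect of heat, of ONAC127 or of ONAC129 on any of the 9 genes could therefore be computed. The pooled means describe how the reads of superoxide dismutases and catalases were divided among the genes in these caryopses. They are not divided by transcript length, so the orders and ratios below are of read counts and not of transcript numbers.

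Superoxide dismutases convert the superoxide radical into hydrogen peroxide and oxygen, and they fall into classes by their metal and by where in the cell they work. CuZn-SODs act in the cytosol and in plastids, Mn-SOD acts in mitochondria and Fe-SODs act mainly in plastids. Catalases, which work in peroxisomes and carry a heme group, break hydrogen peroxide down into water and oxygen without needing a reducing partner. In the cereal grain both enzyme families protect cells during filling, when respiration is high, and later during drying and germination.

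The reads lay mostly with the cytosolic and mitochondrial superoxide dismutases and with CatA and CatB. SodCc2, sodA and SodCc1 had the highest pooled means of the 9, CatB and CatA followed, sodCp lay below them, and CatC and both Fe-SODs were lowest. Of the 9 genes, 5 reached 1000 normalised counts, as did 2109 of all 55801 genes. All 9 lay above 15.9, the median of the 40831 genes above 0. Together they held 0.115% of all normalised counts, with 10694 ± 19.0 (counting SE) for the superoxide dismutases and 2610 ± 9.38 for the catalases. The counting SE of each value assumes the same level in every library and covers the sampling of reads only, since a pooled mean holds no spread between samples.

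The cytosolic CuZn-SODs, abundant copper enzymes of plant cells, took the largest part of the superoxide dismutase reads, 59.7% ± 0.0871 (counting SE). SodCc2 on chromosome 7 had 4167 ± 11.9 normalised counts, more than 98.9% of the genes above 0, and was the highest of the 9 genes. SodCc1 on chromosome 3 had 2220 ± 8.65, more than 97.8% of the genes above 0. SodCc2 thus had 1.88 times the normalised count of SodCc1, with a 95% interval from counting error of 1.86 to 1.90. These genes encode closely similar small proteins, so reads common to both may have been split or lost in the authors' counting, and their ratio is less certain than its interval.

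The plastid enzyme sodCp, on chromosome 8, had 840 ± 5.32 normalised counts and held 7.85% ± 0.0478 of the superoxide dismutase reads. The count of SodCc2 was 4.96 times that of sodCp (95% counting interval 4.89 to 5.03), and the count of SodCc1 was 2.64 times that of sodCp (2.60 to 2.68). The 3 CuZn-SOD genes together held 67.6% ± 0.0831 of the family's reads. CCS (LOC_Os04g48410), the copper chaperone that loads copper into CuZn-SODs, had 201 ± 2.60 normalised counts. CCS was therefore read less than each of the 3, with SodCc2 at 20.8 times, SodCc1 at 11.1 times and sodCp at 4.19 times its normalised count.

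The Mn-SOD gene sodA, which guards the mitochondrial matrix, was the second highest of the 9 genes and the highest superoxide dismutase outside the CuZn class. It is on chromosome 5 and had 3242 ± 10.5 normalised counts, more than 98.6% of the genes above 0. This was 30.3% ± 0.0816 of the superoxide dismutase reads. The count of SodCc2 was 1.29 times that of sodA (95% counting interval 1.27 to 1.30), and the count of sodA was 1.46 times that of SodCc1 (1.45 to 1.48).

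The Fe-SOD genes, both on chromosome 6, were the lowest of the superoxide dismutases and together held 2.11% ± 0.0255 of the family's reads. LOC_Os06g02500 had 149 ± 2.24 normalised counts and LOC_Os06g05110 had 77.1 ± 1.61, so that the former was read 1.93 times as often (95% counting interval 1.83 to 2.03). They lay above 75.9% and 67.4% of the genes above 0. The plastid CuZn-SOD sodCp had 5.65 times the normalised count of LOC_Os06g02500 and 10.9 times that of LOC_Os06g05110. The 3 genes of the classes known from plastids, sodCp and both Fe-SODs, held 9.96% ± 0.0532 of the superoxide dismutase reads. The count of sodA was 42.1 times that of LOC_Os06g05110 (95% counting interval 40.3 to 43.8), and the count of SodCc2 was 54.1 times (51.9 to 56.3).

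**Figure D1:**
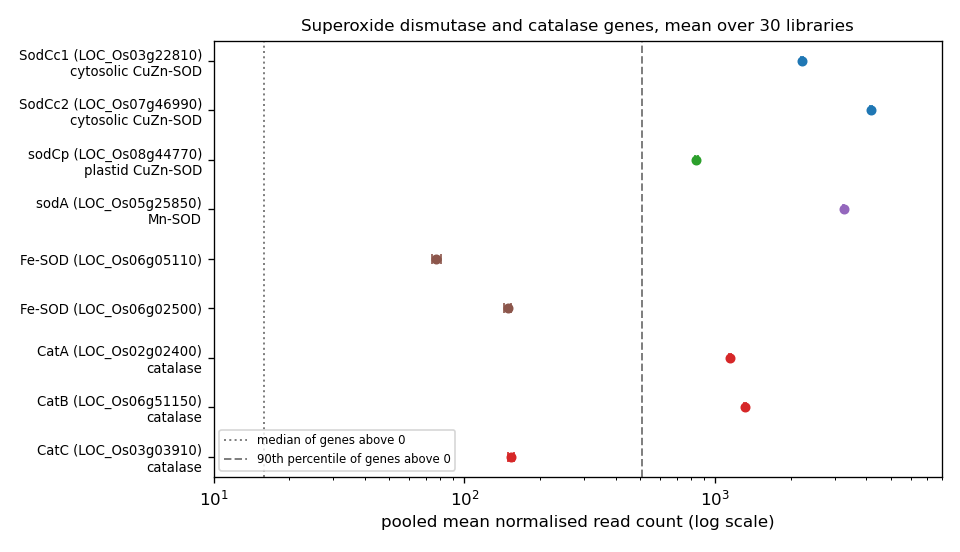
Pooled mean normalised read count (log axis) of the 6 superoxide dismutase and 3 catalase genes over 30 libraries; bars are 95% counting intervals, mostly narrower than the points, and the dotted and dashed lines are the median and the 90th percentile of genes above 0. SodCc2 lies highest at 4167 and LOC_Os06g05110 lowest at 77.1, and CatC and both Fe-SODs stand apart from the other 6 genes.

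The catalases divided into a pair with many reads and a member with few. CatB, on chromosome 6, had 1311 ± 6.65 normalised counts, more than 96.0% of the genes above 0, and held 50.2% ± 0.180 of the catalase reads. CatA, on chromosome 2, had 1146 ± 6.22, more than 95.4% of the genes above 0, and held 43.9% ± 0.178. The count of CatB was 1.14 times that of CatA (95% counting interval 1.13 to 1.16). This difference exceeds counting error, but whether it exceeds the spread between samples or a difference in transcript length was not tested.

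CatC, the catalase known from rice leaves for removing the hydrogen peroxide of photorespiration, was the lowest catalase. It is on chromosome 3 and had 153 ± 2.27 normalised counts, more than 76.3% of the genes above 0. Its share of the catalase reads was 5.87% ± 0.0845, against 94.1% for CatA and CatB together. The count of CatB was 8.55 times that of CatC (95% counting interval 8.29 to 8.82), and that of CatA was 7.48 times (7.25 to 7.71). In the order of the 9 genes, CatC and the Fe-SOD gene LOC_Os06g02500 are the only neighbours whose normalised counts did not differ beyond counting error, with a ratio of 1.03 (0.990 to 1.08).

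**Figure D2:**
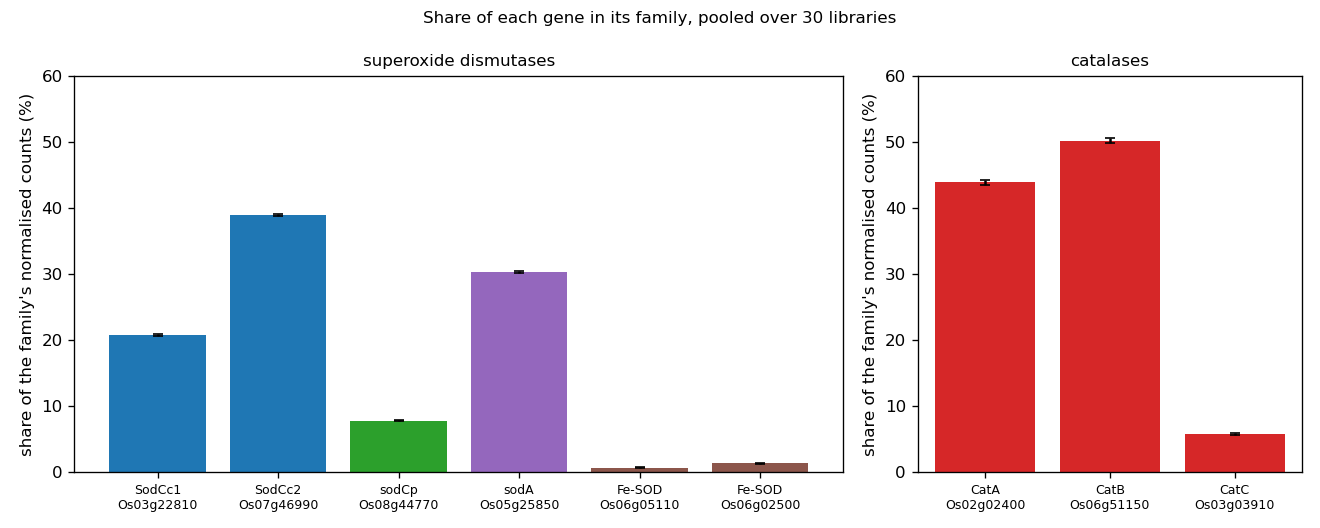
Share of each gene in the normalised counts of its family, in percent, for the superoxide dismutases (left) and the catalases (right), pooled over 30 libraries; bars start at 0 and error bars are 95% counting intervals. SodCc2 and sodA hold 39.0% and 30.3% of the superoxide dismutase counts, and CatB and CatA hold 50.2% and 43.9% of the catalase counts.

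Summed over genes, the superoxide dismutases had 4.10 times the normalised count of the catalases (95% counting interval 4.07 to 4.13). Catalase transcripts are longer than those of superoxide dismutases, which gives a catalase more reads for the same number of transcripts, so this ratio of reads is not a ratio of transcripts. Among the dismutases SodCc2 held 39.0% ± 0.0866 of the reads, ahead of sodA, and SodCc1 held 20.8% ± 0.0720.

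A pooled mean also sets a ceiling on what any group can have had, because it is the average of 10 groups of equal size and no value lies below 0. For LOC_Os06g05110, the lowest gene, the mean of a single group cannot have been above 771 normalised counts, nor the mean of the 15 libraries of either condition above 154. For CatC these ceilings are 1533 and 307, and for LOC_Os06g02500 they are 1486 and 297. So averaged over either the heat-stressed or the normally grown libraries, CatC lay below the pooled means of CatA and CatB, and each Fe-SOD gene lay below that of sodCp. The ceilings do not fix the order within a condition, since the other genes may also have differed between conditions. In the other direction, a doubling of a gene in 1 group alone would raise its pooled mean by only 10%, so a change confined to 1 genotype and condition would hardly show.

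The 9 genes lie on 6 chromosomes and none is next to another. SodCc2 and sodA were read more than each of the 10 nearest gene identifiers on either side, whose highest values were 194 and 179 normalised counts. sodCp was exceeded by 1 of its 20 neighbours, and SodCc1, CatA and CatB by 2 each. CatC was exceeded by 9, and LOC_Os06g05110 and LOC_Os06g02500 by 10 each. Of all 55801 genes, 99.2% lay below SodCc2, 99.0% below sodA, 98.4% below SodCc1 and 97.1% below CatB. The share was 96.7% for CatA, 95.4% for sodCp, 82.7% for CatC, 82.4% for LOC_Os06g02500 and 76.2% for LOC_Os06g05110. Whether the neighbours depart from these shares was not tested. CatA lies beside LOC_Os02g02410, which had 20781 normalised counts. The median of the 20 neighbours was 1.02 normalised counts for SodCc2, 1.42 for sodA and 24.1 for CatB, against 201 for LOC_Os06g02500.

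Of other genes of superoxide and hydrogen peroxide metabolism, 50 loci were listed and 24 were named from the reference table. The copper chaperone CCS is among the 24, though it neither makes nor removes superoxide or peroxide. All 24 were read, as were 40831 of all 55801 genes, and 6 of the 24 reached 1000 normalised counts, as did 2109 of all 55801. The median of the 24 was 258 against 1146 for the 9 superoxide dismutase and catalase genes. None of these 24 had a normalised count above that of SodCc2, and 4 lay below LOC_Os06g05110, the lowest of the 9. The other 26 listed loci were left unnamed. For most no entry matched, for LOC_Os03g11960 no name was sought, and LOC_Os07g44430 and LOC_Os07g44440 matched the same entry. Of the 26, 2 exceeded SodCc2, LOC_Os07g44430 with 10524 ± 18.8 and LOC_Os05g02530 with 9084 ± 17.5 normalised counts. A further 10 lay below LOC_Os06g05110.

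Genes named as glycolate oxidases, a class of peroxisomal enzymes that release hydrogen peroxide beside catalase, had a median of 827 normalised counts over 4 genes. Whether the product of each gene is an active enzyme was not tested. GLO5 was highest at 1859 ± 7.92, above both CatB and CatA, followed by GLO3 at 937 ± 5.62, GLO1 at 716 ± 4.91 and GLO4 at 288 ± 3.12. All 4 were read more than CatC. RbohB, an NADPH oxidase that makes superoxide at the plasma membrane, had 63.1 ± 1.46. AOX1a, an alternative oxidase that limits superoxide formation in mitochondria, had 58.9 ± 1.41, and both lay below every superoxide dismutase. RbohB does not stand for its class. Loci listed as NADPH oxidases without an entry by name in the reference spanned 2.26 ± 0.276 (LOC_Os01g61880) to 2602 ± 9.37 (LOC_Os12g35610), the latter above SodCc1.

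Among enzymes that remove hydrogen peroxide other than catalase, the 8 ascorbate peroxidases had a median of 317 normalised counts. The cytosolic APX1 and APX2 led them with 3210 ± 10.4 and 2327 ± 8.86, and the lowest was APX3 with 71.3 ± 1.55. APX1 and APX2 each had a higher normalised count than CatB, and APX1 lay between SodCc1 and sodA. APX4 had 407 ± 3.70, and APX5, APX6, APX7 and APX8 lay between 105 and 519. The 5 peroxiredoxins named in the reference, which reduce peroxides through cysteine thiols, had a median of 1048, from 194 ± 2.56 for PrxIIE-2 to 1956 ± 8.12 for PrxIIE-1. The reference entry R1C-Prx, a further peroxiredoxin, matched both of the adjacent loci LOC_Os07g44430 and LOC_Os07g44440, which lie outside this range on either side at 10524 ± 18.8 and 4.51 ± 0.390. The chloroplast 2-Cys peroxiredoxin bas1 had 1146 ± 6.22, the same as CatA within counting error, and the mitochondrial PrxIIF had 532 ± 4.23, below sodA. Of the genes that recycle ascorbate and glutathione, 4 were named, with a median of 92.2: MDHAR5 at 135 ± 2.13, the glutathione reductase GR at 96.3 ± 1.80, MDHAR2 at 88.1 ± 1.72 and MDHAR1 at 3.98 ± 0.367. Loci listed with them but without a match in the reference spanned 51.5 ± 1.32 (LOC_Os06g12630) to 9084 ± 17.5 (LOC_Os05g02530), the latter above SodCc2. The 4 named genes therefore do not show how high the class was read. MDHAR1 and MDHAR2 have adjacent gene identifiers, and whether reads were shared between them was not tested. Loci listed as glutathione peroxidases, a further class, had no entry by name and spanned 36.8 ± 1.11 (LOC_Os11g18170) to 655 ± 4.70 (LOC_Os04g46960).

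**Figure D3:**
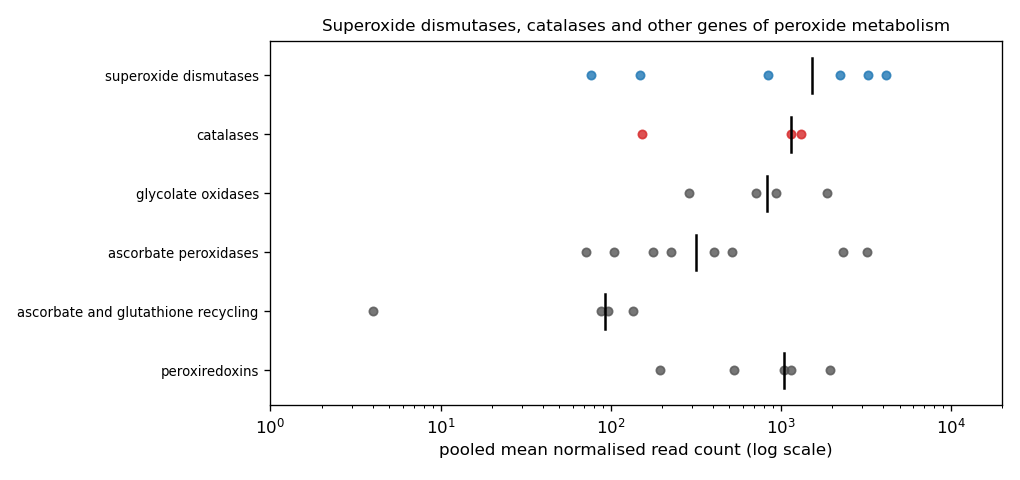
Pooled mean normalised read count (log axis) of the superoxide dismutases (blue), the catalases (red) and the other named genes of peroxide metabolism (grey, lists of at least 4 named genes); each point is 1 gene and the vertical bar is the list's median. The superoxide dismutases, with a median of 1530, span 77.1 to 4167, and the 4 named genes of ascorbate and glutathione recycling reach at most 135. Listed loci left unnamed, from 2.26 (LOC_Os01g61880) to 10524 (LOC_Os07g44430), are not shown. They include LOC_Os05g02530, listed with the recycling genes, at 9084.

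The tissue label was set against genes that define parts of the grain. RPBF (endosperm), LHCB1 (green tissue) and Ole16 (embryo and aleurone) were also listed, but had no matching entry in the reference and are not given. Embryo and aleurone therefore rest on 1 gene. The endosperm genes GluA1 and GluA2 (storage protein), GBSSI and ALK (starch synthesis) had 61910, 47812, 39906 and 20453 normalised counts, and Ole18, of embryo and aleurone oil bodies, had 21160. RBCS1 and RBCS-C, of the photosynthetic enzyme Rubisco and so of green tissue such as the fruit coat, had 2061 and 1352. The caryopsis was sequenced whole, so reads of the plastid and photorespiratory genes named above cannot be assigned to the fruit coat or the endosperm, and more cells of a tissue cannot be told apart from more RNA per cell.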

How the data were processed

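CASAVA 1.7, HISAT2 2.0.5 and DESeq2 are named, per the submitters' processing notes. Not given in the sources used here are the read counter, its strand setting, the genome build and the annotation. Per the file headers, the authors deposited a gene identifier and a baseMean, treated here as a signal: the mean over libraries of counts divided by size factors. The 8 tables were identical, so 1 was used, and the planned tests of genotype and heat were not run.

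The lowest values were searched for single reads, as values that no sum of smaller ones gives within 1e-11, which yielded 30 libraries with size factors from 0.551 to 1.64. The counting SE of a pooled mean follows from these size factors for a gene read at the same level in every library, and 95% intervals are normal. The recovery of the size factors and the counting SE were tested on simulated data. Total reads per sample are not known.

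The members and gene lists were chosen with earlier results of these data known. Chromosomes come from the identifiers. Names were sought in the RefSeq table for ASM3414082v1, of which 0 entries carry a LOC_Os identifier, by name, chromosome and relative place (within 0.1 of the chromosome). Of the 9 members 6 matched. CatC and both Fe-SODs have no entry by name, and their identities rest on general knowledge. Listed genes without a match are not named, and the adjacent loci LOC_Os07g44430 and LOC_Os07g44440, which matched the same entry, were left out of the list medians. All 9 members were named by rule, with genes of lists of 10 or fewer. The division by coding length that was planned was not made, because no coding lengths were available here. Calculations were made in Python 3.11.15 with pandas 2.3.3 and numpy 2.4.6, and figures with matplotlib 3.10.9.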

Additional observations from a re-analysis of the deposited data

How the results depend on the processing

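Against all gene identifiers the percentiles of the 9 genes were 99.2 for SodCc2, 99.0 for sodA, 98.4 for SodCc1, 97.1 for CatB, 96.7 for CatA, 95.4 for sodCp, 82.7 for CatC, 82.4 for LOC_Os06g02500 and 76.2 for LOC_Os06g05110. Against genes of at least 10 normalised counts they were 98.1 for SodCc2, 97.4 for sodA, 95.8 for SodCc1, 92.6 for CatB, 91.5 for CatA, 88.5 for sodCp, 56.2 for CatC, 55.4 for LOC_Os06g02500 and 39.7 for LOC_Os06g05110. The order of the 9 genes is the same by construction, and the percentiles move because genes at low counts are added or left out. LOC_Os03g11960, with 844 normalised counts, was listed as CuZn-SOD-like. No name was sought for it in the reference, so its identity is not established here. With LOC_Os03g11960 counted as a further superoxide dismutase, the shares were 36.1% for SodCc2, 28.1% for sodA, 19.2% for SodCc1, 7.28% for sodCp, 1.29% for LOC_Os06g02500 and 0.668% for LOC_Os06g05110. In an alternative chosen after seeing the data, with every listed locus in place of the named ones, the peroxiredoxin median was 790 in place of 1048, and that of the recycling genes was 92.2 over 10 loci as over 4. The lists of glycolate oxidases and ascorbate peroxidases gained no locus, and no listed locus lay under 1 normalised count, so these settings could not move their medians. With size factors of 1 the counting SE was 99.4% of that given, and 30 libraries were found at tolerances of 1e-12 and 1e-10.

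The division by coding length was not run, because no coding lengths were available here. The tests with other normalisation, tools or filters and with replicates left out were not run, because the values received are pooled over all samples. No paired analysis was possible because each gene has 1 value over all samples. Depth limits little here (the counting SE is 0.284% to 2.09% of the level), and the spread between samples, genotypes and conditions is unknown for every value.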
